A study of Mus musculus with 2 samples.

Results

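The genes described are the matrix metalloproteases (MMP), the ADAMTS proteases, the related ADAMTS-like and HTRA genes and the tissue inhibitors of metalloproteases (TIMP), in cells of mouse embryonic forelimbs. Members were taken by gene symbol, and the procollagen N-proteinase genes *Adamts2*, *Adamts3* and *Adamts14* were left out. That gave 52 genes (61 transcripts) of 22096 genes in the files: 23 MMP, 4 TIMP, 16 ADAMTS, 5 ADAMTS-like and 4 HTRA genes. The ScxGFP-positive library was made from cells sorted for green fluorescence from forelimbs of embryos at E13.5, of mixed strain background. The ScxGFP-negative library was made from the non-fluorescent cells of such forelimbs. In both, 6 forelimbs (3 pairs) were pooled. The ScxGFP reporter uses control regions of *Scx*, the gene of scleraxis, a basic helix-loop-helix factor that marks progenitors of tendon and ligament. The question addressed is which transcripts distinguish cells with reporter fluorescence from the other cells of the limb.

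These proteases remodel the matrix in which limb tissues form. MMP enzymes are zinc proteases that cut collagens and many other matrix and surface proteins. Most are made as inactive precursors, are activated by other proteases and are blocked by TIMP proteins. ADAMTS enzymes are secreted zinc proteases, several of which cut the large proteoglycans versican and aggrecan, while ADAMTS-like proteins share their accessory domains but lack the protease domain. HTRA proteins are serine proteases with a different fold, of which HTRA1 and HTRA3 are secreted and HTRA2 is mitochondrial. In the mouse, loss of several versican-cutting ADAMTS genes together leaves soft tissue between the digits, and loss of *Mmp14* impairs skeletal and connective tissue growth.

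Each population gave 1 library, so there was no test and no replicate check, and every difference below describes these 2 libraries. Levels are in FPKM as deposited, a measure per transcript length and per mapped fragment, with the transcripts of each gene added together. The log2 ratio is that of ScxGFP-positive over ScxGFP-negative values on the FPKM + 1 scale, which understates differences of genes at low levels. All 2-fold calls are on this scale unless another setting is named. A gene called within 2-fold can thus differ by more than 2-fold in FPKM itself. A gene counted as measured at 1 FPKM or more in either library. The sort gene *Scx* stood at 134 FPKM in the ScxGFP-positive library and 1.69 FPKM in the ScxGFP-negative library. Sequence aligned to listed transcripts came to 0.687 gigabases in the ScxGFP-positive and 0.875 gigabases in the ScxGFP-negative library. Over all 12096 measured genes the median log2 ratio was −0.27, with 488 genes higher in the ScxGFP-positive library by 2-fold or more and 1207 lower. With the median FPKM ratio set to 1 these counts were 716 and 936, 672 and 967 with upper quartiles made equal, and 1133 and 1164 after conversion to TPM (equal sums). The median of all genes was then −0.00062, −0.039 and 0.10.

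Of the 52 genes, 27 were measured, and most of these stood higher in the ScxGFP-positive library. At least 2-fold higher were 6 of 27 (*Htra3*, *Adamts15*, *Adamtsl3*, *Mmp16*, *Htra1* and *Adamts12*), where the background was 4.03% of all measured genes. At least 2-fold lower was 1 of 27, *Mmp15*, where the background was 9.98%. The other 20 were within 2-fold. The log2 ratio was above 0 in 22 of 27 genes, beside 26.2% of all measured genes, and its median was 0.71, which lay 0.97 above that of all measured genes. The filter bears on these counts, because 7 genes passed it through the ScxGFP-positive library alone and 2 through the ScxGFP-negative library alone. Among the 18 that had at least 1 FPKM in both libraries, 3 were at least 2-fold higher and 0 at least 2-fold lower, beside 2.28% and 5.03% of the 10153 genes at that level in both, and the medians were 0.70 for these 18 and −0.25 for all 10153. With a pseudocount of 5 only *Htra3* passed 2-fold, where 1.84% of all genes were at least 2-fold higher. With TPM 20 genes did on the higher side, beside 9.37% of all genes, so the counts rest on the scale chosen.

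**Figure D1:**
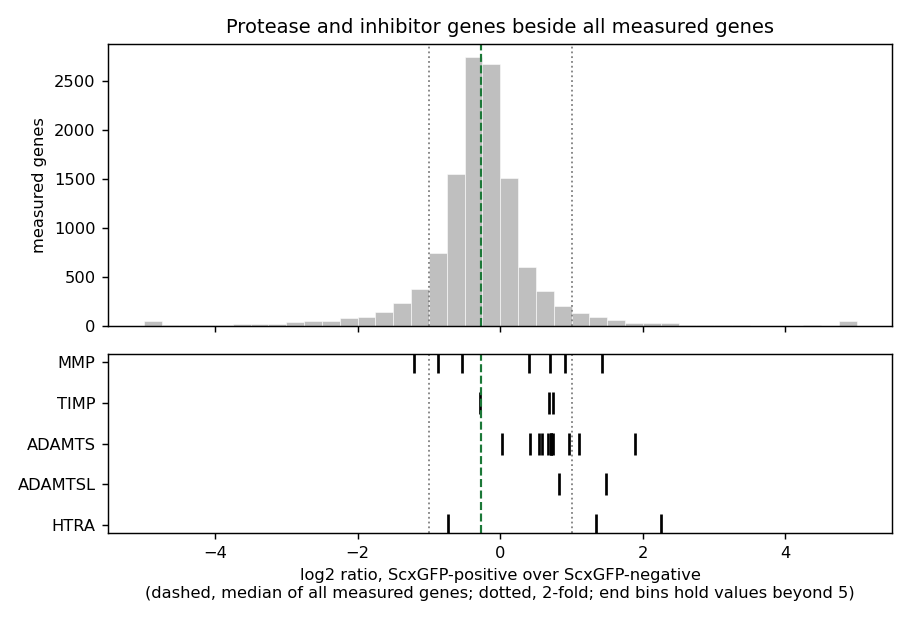
Histogram of the log2 ratio (ScxGFP-positive over ScxGFP-negative, FPKM + 1 scale) of 12096 measured genes, above the values of the 27 measured protease and inhibitor genes, 1 tick a gene. The dashed line is the median of all measured genes, −0.27. Above 0 lie 22 of 27 ticks. The ADAMTS and ADAMTS-like ticks all do, though *Adamts10* and *Adamts17* turned below 0 under 1 other setting each. Measured genes under 1 FPKM in the ScxGFP-negative library could lie only above 0.

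The transcripts present at the highest level per length were the same 5 genes in both libraries. *Mmp11*, *Mmp2*, *Timp2*, *Mmp14* and *Timp3* made up 62.5% of the summed FPKM of the 52 genes in the ScxGFP-positive library and 65.1% in the ScxGFP-negative library. They were also the only members at 10 FPKM or more in either library. In the ScxGFP-positive library the order from the highest was *Mmp11*, *Mmp2*, *Timp2*, *Mmp14* and *Timp3*, and in the ScxGFP-negative library it was *Mmp2*, *Timp2*, *Timp3*, *Mmp14* and *Mmp11*. With 1 library each there is no spread against which to set neighbouring levels. The sum over the 52 genes was 261 FPKM in the ScxGFP-positive and 169 FPKM in the ScxGFP-negative library, 0.161% and 0.0768% of all FPKM.

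**Figure D2:**
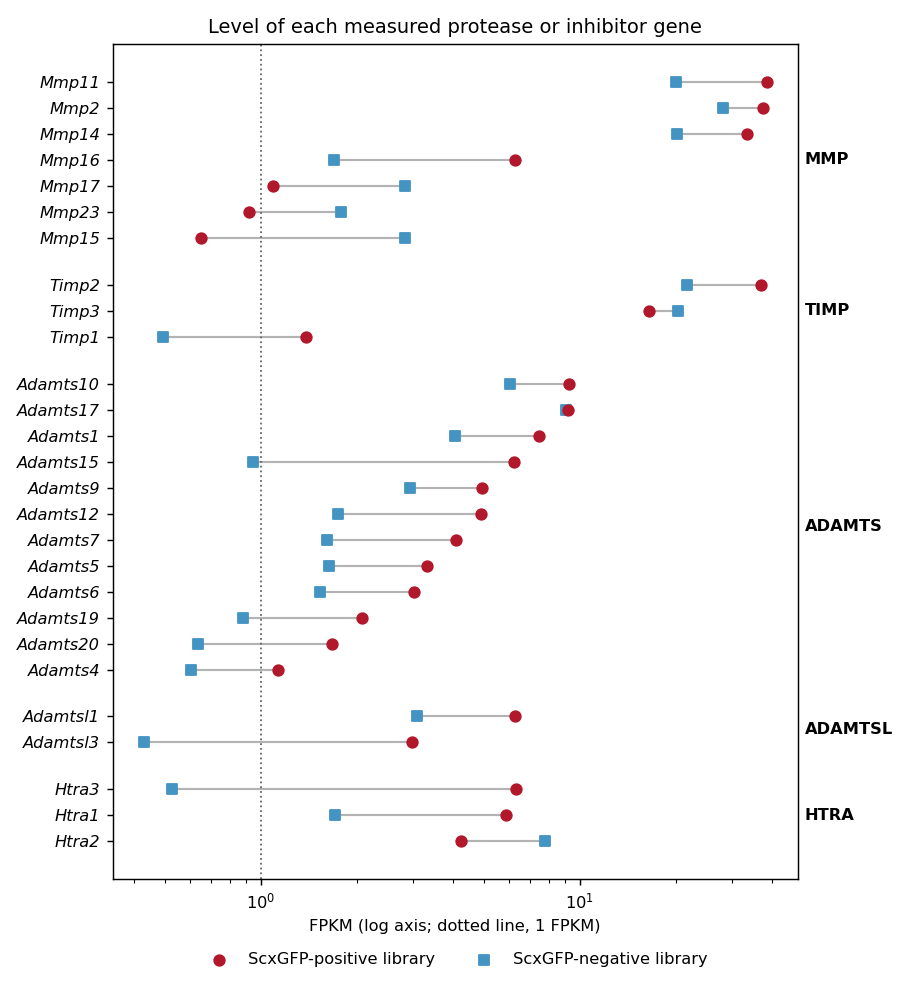
FPKM (log axis) of the 27 measured genes in the ScxGFP-positive library (circles) and the ScxGFP-negative library (squares), by family. *Mmp11*, *Mmp2*, *Mmp14*, *Timp2* and *Timp3* lie above 10 FPKM in both libraries, while 7 genes, among them *Htra3*, *Adamtsl3* and *Adamts15*, lie below 1 FPKM in the ScxGFP-negative library and 2 genes, *Mmp15* and *Mmp23*, in the ScxGFP-positive library.

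The gelatinase gene *Mmp2*, the membrane-type gene *Mmp14* and the inhibitor gene *Timp2* encode the parts of one activation complex: MMP14 at the cell surface binds TIMP2, which holds the MMP2 precursor for cleavage. *Mmp2* stood at 37.5 FPKM in the ScxGFP-positive library and 28.0 FPKM in the ScxGFP-negative library. *Mmp14*, whose product also cuts fibrillar collagen directly, stood at 33.4 against 20.2 FPKM, and *Timp2* at 37.0 against 21.7 FPKM. All 3 were higher in ScxGFP-positive cells and all 3 were within 2-fold, with log2 ratios of 0.41, 0.70 and 0.75. *Mmp11*, which encodes stromelysin 3, an MMP of stromal cells that is activated by furin inside the cell, stood at 38.5 FPKM in the ScxGFP-positive library and 20.03 FPKM in the ScxGFP-negative library. Its log2 ratio of 0.91 fell just short of 2-fold, and with the median FPKM ratio set to 1 it passed, as did *Mmp14* and *Timp2*.

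The membrane-type MMP genes differed in direction. *Mmp16*, which encodes the membrane-anchored MT3-MMP, stood at 6.26 FPKM in the ScxGFP-positive library and 1.69 FPKM in the ScxGFP-negative library, a log2 ratio of 1.43 (mm9 chr4:17780629-18045881). *Mmp15*, which encodes MT2-MMP, stood at 0.649 FPKM in the ScxGFP-positive library and 2.83 FPKM in the ScxGFP-negative library, a log2 ratio of −1.22 (mm9 chr8:97876237-97898193). The lower of these values rests on about 6342 aligned bases. Having passed the filter through the ScxGFP-negative library alone, *Mmp15* could only be lower. *Mmp17*, whose product MT4-MMP is held by a lipid anchor, stood at 1.09 against 2.82 FPKM, just inside 2-fold at −0.87 on the FPKM + 1 scale. *Mmp23*, an atypical MMP without the haemopexin domain, stood at 0.921 against 1.78 FPKM. *Mmp24* and *Mmp25*, known from neurons and leukocytes, stood at 0.0259 against 0.0834 FPKM and at 0.160 against 0.297 FPKM. Thus the 4 measured membrane-type genes held 1 call on each side, and 2 stayed within 2-fold. Among all measured genes, 4.03% were called on the higher side and 9.98% on the lower.

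Markers of other cell types differed between the libraries as well. In the ScxGFP-positive library all 6 epidermal markers in the files were at least 2-fold lower (summed level 10.8 against 302 FPKM), as were 5 of 6 endothelial markers (2.95 against 45.5 FPKM), all 6 macrophage markers (6.42 against 212 FPKM) and all 5 Schwann cell markers (2.84 against 32.4 FPKM). None of these markers was listed at 0. Blood cell markers were lower as well: all 5 erythroid markers were at least 2-fold lower (155 against 6413 FPKM), as were all 4 measured mast cell markers of 5 (4.65 against 358 FPKM, *Mcpt4* listed at 0 in the ScxGFP-positive library). The osteoblast markers were split (summed level of all 5, 5.94 against 15.3 FPKM). Both measured markers, *Runx2* and *Sp7*, were at least 2-fold lower. Under 1 FPKM in both libraries, *Alpl* (0.922 against 0.141 FPKM) and *Ibsp* (0.181 against 0 FPKM) stood higher and *Bglap* (0.187 against 0.902 FPKM) lower. Of the osteoclast markers 3 were in the files, with 1 at least 2-fold higher and 1 lower (5.41 against 4.93 FPKM). On the higher side, apart from the sort gene *Scx*, 3 of 4 tendon markers (54.9 against 4.72 FPKM), 4 of 5 skeletal muscle markers (142 against 18.0 FPKM) and both measured markers of 5 for pericytes and smooth muscle (22.7 against 3.17 FPKM) were at least 2-fold higher. The part of these cells in the values of *Mmp15*, *Mmp17* and the genes on the higher side was not tested, and in pooled cells fewer cells of a type and less RNA per cell cannot be told apart.

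The inhibitor genes were present at levels like those of the most abundant proteases, apart from *Timp1* and *Timp4*. TIMP3, unlike the other inhibitors, binds to the matrix and also blocks several ADAMTS enzymes. Its gene *Timp3* stood at 16.5 FPKM in the ScxGFP-positive library and 20.4 FPKM in the ScxGFP-negative library. The log2 ratio of −0.29 lay near the median of all genes, and its sign turned with TPM (0.14) and with the median FPKM ratio set to 1 (0.030). *Timp1* stood at 1.39 FPKM in the ScxGFP-positive library and 0.495 FPKM in the ScxGFP-negative library, a log2 ratio of 0.68 that rests on about 2823 and 1048 aligned bases. *Timp4* was at 0.0532 against 0.0497 FPKM. *Timp1*, *Timp3* and *Timp4* lie within the synapsin genes *Syn1*, *Syn3* and *Syn2*, and the library chemistry does not mark strand. The synapsin genes stood at 0.226, 1.39 and 0.166 FPKM in the ScxGFP-positive library and 0.213, 1.09 and 0.0954 FPKM in the ScxGFP-negative library. The overlaps were taken from whole gene spans, and exons were not compared. Reads from any bases that both transcripts hold cannot be told apart by strand, which would bear most on *Timp1* and *Timp4*.

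Of the ADAMTS genes known for cutting versican and aggrecan, 6 of 7 were measured. All 6 had higher levels in ScxGFP-positive cells, beside 26.2% of all measured genes. *Adamts15*, *Adamts20* and *Adamts4* passed the filter through the ScxGFP-positive library alone, so they could only be higher. *Adamts1*, *Adamts5* and *Adamts9* had at least 1 FPKM in both libraries. *Adamts15* stood out by size, at 6.21 FPKM in the ScxGFP-positive library and 0.943 FPKM in the ScxGFP-negative library, a log2 ratio of 1.89 (mm9 chr9:30706740-30730037). Its neighbour *Adamts8* (mm9 chr9:30750148-30770443), of the same subgroup, was not measured, at 0.562 against 0.0771 FPKM. *Adamts1* stood at 7.45 FPKM in the ScxGFP-positive library and 4.05 FPKM in the ScxGFP-negative library, and its neighbour *Adamts5*, the main aggrecanase of mouse cartilage, at 3.32 against 1.64 FPKM. These neighbours on chromosome 16 (mm9 chr16:85794073-85803360 and chr16:85858402-85901370) had log2 ratios of 0.74 and 0.71. *Adamts9* stood at 4.93 against 2.95 FPKM, *Adamts20* at 1.67 against 0.636 FPKM and *Adamts4*, another aggrecanase, at 1.13 against 0.605 FPKM. All measured ones but *Adamts15* were within 2-fold on the FPKM + 1 scale, and *Adamts15* was at 0.92 with a pseudocount of 5.

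The other ADAMTS genes were measured in 6 of 9 cases, with 1 at least 2-fold higher. *Adamts12* and *Adamts7* encode a closely related pair of enzymes known to bind cartilage oligomeric matrix protein. *Adamts12* stood at 4.90 FPKM in the ScxGFP-positive library and 1.75 FPKM in the ScxGFP-negative library, a log2 ratio of 1.10 (mm9 chr15:10994545-11276622). *Adamts7* stood at 4.09 against 1.61 FPKM, just within 2-fold at 0.96 on the FPKM + 1 scale, though not in FPKM itself. The pair thus lay on either side of the 2-fold line with like ratios, and after removal of the trend of ratios with transcript length *Adamts12* was under 2-fold too. Of 9 settings, *Adamts12* passed 2-fold in 7 and *Adamts7* in 4.

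*Adamts6* and *Adamts10* encode a second related pair, of which ADAMTS10 binds fibrillin. *Adamts6* stood at 3.03 FPKM in the ScxGFP-positive library and 1.54 FPKM in the ScxGFP-negative library, and *Adamts10* at 9.23 against 6.03 FPKM. The transcripts of *Adamts10* differed: the coding transcript NM_172619 stood at 3.81 against 0.893 FPKM, and the non-coding transcript NR_037707 at 4.63 against 4.66 FPKM. How reads were divided between such overlapping transcripts is uncertain. *Adamts17* and *Adamts19* form another pair, and they differed: *Adamts17* stood at 9.17 against 9.02 FPKM and *Adamts19* at 2.07 against 0.881 FPKM. *Adamts16* and *Adamts18* were not measured and pointed in opposite directions, at 0.848 against 0.0750 FPKM and at 0.102 against 0.933 FPKM. *Adamts13*, whose product cuts von Willebrand factor in blood, was listed at 0 in both libraries.

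Both measured ADAMTS-like genes were higher in ScxGFP-positive cells, though *Adamtsl3* passed the filter through that library alone and so could only be higher. *Adamtsl3* stood at 2.98 FPKM in the ScxGFP-positive library and 0.430 FPKM in the ScxGFP-negative library, a log2 ratio of 1.48 (mm9 chr7:89484204-89762958), the ScxGFP-negative value on about 7488 aligned bases. *Adamtsl1* stood at 6.25 against 3.08 FPKM, within 2-fold at 0.83 on the FPKM + 1 scale. *Adamtsl2*, whose product binds fibrillin and a latent TGF-beta binding protein, was under 1 FPKM in both libraries, at 0.913 against 0.0470 FPKM, the ScxGFP-negative value on about 364 aligned bases. *Adamtsl4* stood at 0.664 against 0.342 FPKM and *Adamtsl5* at 0.693 against 0.564 FPKM.

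The HTRA genes gave the highest ratio of the 27 measured genes and also one of the lowest. *Htra3* stood at 6.32 FPKM in the ScxGFP-positive library and 0.529 FPKM in the ScxGFP-negative library, a log2 ratio of 2.26 (mm9 chr5:35994682-36022431). Nearly all of it came from the longer transcript, NM_030127, at 5.84 against 0.529 FPKM, and the shorter NM_001042615 was at 0.480 FPKM in the ScxGFP-positive library. The ratio of *Htra3* passed 2-fold under all 10 settings, from 1.03 to 3.56. However, *Htra3* passed the filter through the ScxGFP-positive library alone, so it could only be higher. Its ScxGFP-negative value rests on about 3459 aligned bases. *Htra1*, which encodes the other secreted protease of the family, stood at 5.86 FPKM in the ScxGFP-positive library and 1.70 FPKM in the ScxGFP-negative library, a log2 ratio of 1.34 (mm9 chr7:138079717-138129172). *Htra2*, the gene of the mitochondrial member, stood at 4.26 against 7.78 FPKM, a log2 ratio of −0.74. It overlaps the end of *Loxl3*, which stood at 3.08 against 2.87 FPKM. *Htra4* was at 0.109 FPKM in the ScxGFP-positive library and listed at 0 in the ScxGFP-negative library.

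**Figure D3:**
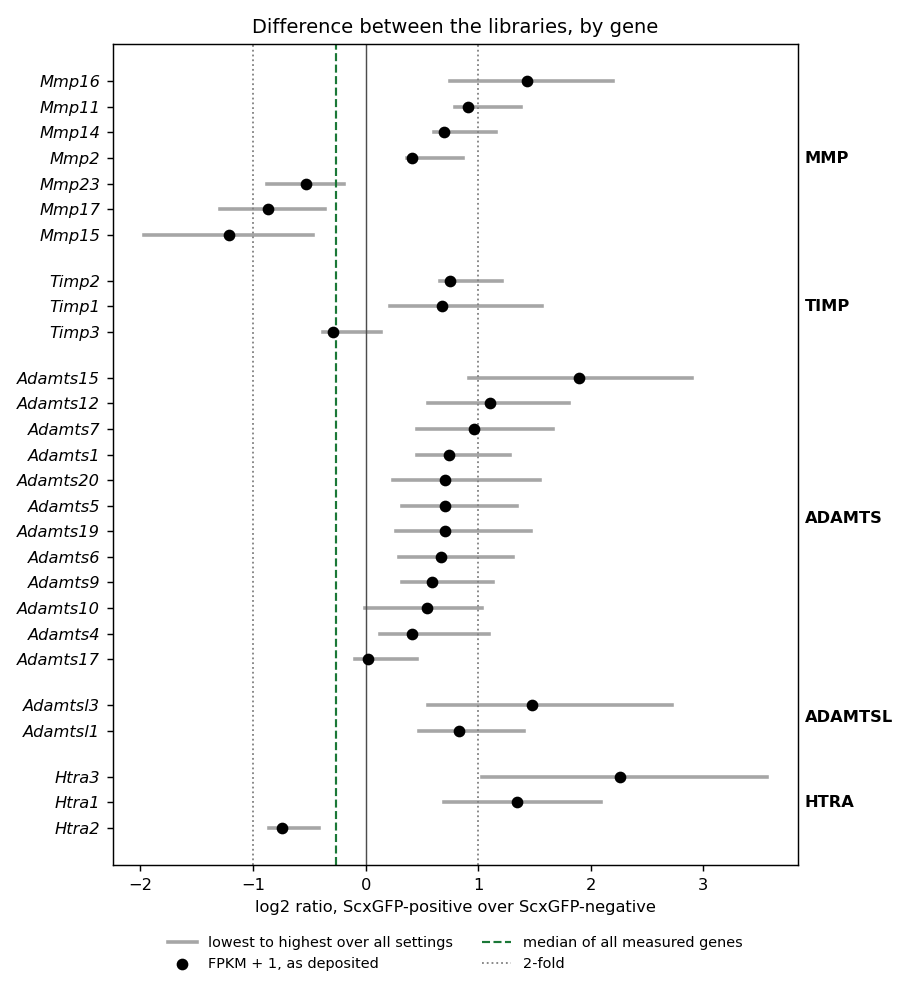
Log2 ratio (ScxGFP-positive over ScxGFP-negative) of the 27 measured genes. Points give the FPKM + 1 value, and grey bars the lowest to highest value over the 10 settings (fewer where a gene failed a stricter filter). The dashed line is the median of all measured genes and dotted lines are 2-fold. *Htra3* stays past 2-fold throughout and *Mmp15* is the 1 gene whose point lies beyond it on the lower side. Each passed the filter through 1 library alone, which fixed its side.

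The 25 of 52 genes that were not measured lay at 0 to 0.933 FPKM, and 7 of them were listed at 0 in both libraries. Of all 22096 genes, 10000 were not measured. In the ScxGFP-positive library 10 of the 52 were listed at 0, beside 5146 of all genes. In the ScxGFP-negative library it was 9, beside 4860. The 25 include all 4 collagenase genes. *Mmp13*, the collagenase of hypertrophic cartilage and bone, was listed at 0 in the ScxGFP-positive library and stood at 0.0461 FPKM in the ScxGFP-negative library. The 3 hypertrophic cartilage markers were not measured and differed among themselves. *Col10a1* stood at 0.610 against 0.604 FPKM, *Ihh* at 0.135 against 0.443 FPKM and *Panx3* at 0.206 against 0.0258 FPKM. *Mmp8*, the neutrophil collagenase, was listed at 0 against 0.256 FPKM, and *Mmp9*, a gelatinase of neutrophils and osteoclasts, stood at 0.232 against 0.380 FPKM. Of 6 neutrophil markers 5 were measured and all 5 were at least 2-fold lower (summed level 0.501 against 63.8 FPKM; *Ngp* and *Ltf* listed at 0 in the ScxGFP-positive library), and their part in *Mmp8* and *Mmp9* was not tested. *Mmp28* stood at 0.0518 against 0.732 FPKM, *Mmp19* at 0.272 against 0.306 FPKM and *Mmp21* at 0.0283 against 0.108 FPKM.

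Of the MMP genes 10 lie side by side on chromosome 9, within 427 kilobases (mm9 chr9:7272514-7699416): *Mmp13*, *Mmp12*, *Mmp1b*, *Mmp3*, *Mmp1a*, *Mmp10*, *Mmp8*, *Mmp27*, *Mmp20* and *Mmp7*. Their products include collagenases, stromelysins, matrilysin, macrophage elastase (*Mmp12*) and the enamel protease of teeth (*Mmp20*). In the ScxGFP-positive library 9 of 10 were listed at 0 and in the ScxGFP-negative library 7 of 10, with 6 at 0 in both. Of all 22096 genes, 5146 and 4860 were listed at 0 in these libraries. Their summed level was 0.0269 FPKM in the ScxGFP-positive and 0.306 FPKM in the ScxGFP-negative library. The other 13 MMP genes, outside the cluster, include all 7 that were measured. AP-1, the factor of Fos and Jun proteins, is known to act on promoters of several inducible MMP genes, so its motif was looked up in the promoter windows held by RefSeq (GRCm38.p6), which matched 35 of the 52 genes. The motif TGANTCA, which reads the same on both strands, was searched in the 250 bases before each start site. It was found for 8 of the 10 cluster genes and for 0 of the 25 other matched genes. Counted by window, it was in 8 of the 38 windows of matched genes (21.1%), beside 6.75% of 32841 promoters of that length. *Mmp12* and *Mmp7* each have a further window, at another start site, without the motif. The motif was chosen after the levels had been seen, and a match is a description of sequence that shows no binding. The 100 bases before the start site (GRCm38.p6, 5′ to 3′, motif in capitals) are shown for 5 cluster genes with the motif, for *Mmp8* without it, and for *Mmp14* and *Htra3* outside the cluster:
*Mmp13* (chr9:7272414-7272513, plus strand): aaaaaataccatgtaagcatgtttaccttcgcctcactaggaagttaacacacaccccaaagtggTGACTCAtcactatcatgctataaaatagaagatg
*Mmp3* (chr9:7445722-7445821, plus strand): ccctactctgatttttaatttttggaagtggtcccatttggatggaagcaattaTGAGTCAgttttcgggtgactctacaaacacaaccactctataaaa
*Mmp10* (chr9:7502242-7502341, plus strand): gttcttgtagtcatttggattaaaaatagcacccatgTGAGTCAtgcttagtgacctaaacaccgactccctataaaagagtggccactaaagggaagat
*Mmp1a* (chr9:7464041-7464140, plus strand): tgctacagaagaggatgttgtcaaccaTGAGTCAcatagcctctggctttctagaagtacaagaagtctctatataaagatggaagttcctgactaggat
*Mmp7* (chr9:7691990-7692089, plus strand): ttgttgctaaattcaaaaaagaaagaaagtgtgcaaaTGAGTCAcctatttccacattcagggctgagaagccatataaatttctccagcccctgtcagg
*Mmp8* (chr9:7558329-7558428, plus strand): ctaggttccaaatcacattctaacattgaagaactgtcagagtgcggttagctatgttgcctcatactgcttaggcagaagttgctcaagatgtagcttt
*Mmp14* (chr14:54431498-54431597, plus strand): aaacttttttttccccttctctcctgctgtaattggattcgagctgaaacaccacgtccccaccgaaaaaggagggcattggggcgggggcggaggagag
*Htra3* (chr5:35679781-35679880, minus strand): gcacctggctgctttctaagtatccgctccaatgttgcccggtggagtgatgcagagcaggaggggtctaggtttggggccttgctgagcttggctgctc
In *Mmp13* the motif begins 35 bases before the start site, in *Mmp3* 46, in *Mmp10* and *Mmp7* 63 and in *Mmp1a* 73. *Mmp12*, *Mmp1b* and *Mmp20* hold it 44, 93 and 95 bases before theirs. All 8 genes with the motif were at or under 0.0461 FPKM in both libraries. The E-box CANNTG is the class of site bound by factors such as scleraxis, and it also reads the same on both strands. It was found for 26 of the 35 matched genes and in 28 of their 38 windows (73.7%), beside 66.2% of all promoters. This motif too was chosen after the levels had been seen. Of the genes at least 2-fold higher, 4 were matched, of which *Htra3*, *Adamtsl3* and *Adamts12* hold it and *Htra1* does not. *Mmp15*, on the lower side, holds it as well. Among the 10 matched genes within 2-fold, *Mmp14*, *Mmp23*, *Timp2*, *Timp3*, *Adamts9*, *Adamts17* and *Adamts20* hold it. *Adamts1*, *Mmp11* and *Timp1* do not.

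Genes acting on these proteases went both ways. Of 17 activators and regulators 10 were measured, with 2 at least 2-fold higher, 2 at least 2-fold lower and 6 neither, and a median log2 ratio of −0.21 beside −0.27 for all measured genes. The proprotein convertases cut the inactive precursors: *Pcsk5* stood at 3.83 FPKM in the ScxGFP-positive library and 0.842 FPKM in the ScxGFP-negative library, and *Pcsk6* at 3.60 against 14.5 FPKM, with log2 ratios of 1.39 and −1.75. *Furin*, another convertase, stood at 5.54 against 7.78 FPKM. The plasminogen activators were split in the same manner: *Plat* stood at 3.13 against 0.932 FPKM and *Plau* at 0.269 against 2.60 FPKM, with log2 ratios of 1.10 and −1.51. *Pcsk5* and *Plat* passed the filter through the ScxGFP-positive library alone, so they could only be higher. *Plau* passed through the ScxGFP-negative library alone and could only be lower. *Reck*, which encodes a membrane-anchored inhibitor of MMP enzymes, stood at 11.3 against 5.85 FPKM, and *Lrp1*, a receptor that clears proteases and TIMP proteins, at 21.8 against 13.1 FPKM, both within 2-fold.

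Of 11 substrates and binding partners 7 were measured, with 4 at least 2-fold higher and 0 lower by as much. The background was 4.03% and 9.98% of all measured genes. The median log2 ratio was 1.65, beside −0.27 for all measured genes. The list was chosen with earlier results of these data known, so these values describe the listed genes only. *Col4a1* was the 1 measured gene below 0, at 12.1 against 16.8 FPKM, and *Col2a1* was within 2-fold at 68.1 against 40.4 FPKM. *Fn1*, encoding fibronectin, stood at 85.3 FPKM in the ScxGFP-positive library and 19.6 FPKM in the ScxGFP-negative library. The fibrillin genes *Fbn1* and *Fbn2* stood at 23.0 against 6.63 FPKM and at 65.1 against 14.99 FPKM. *Col1a1*, encoding the main collagen I chain, stood at 268 FPKM in the ScxGFP-positive library and 44.6 FPKM in the ScxGFP-negative library. *Vcan*, encoding versican, was within 2-fold at 69.0 against 44.1 FPKM, a log2 ratio of 0.63. This was close to the ratios of *Adamts1*, *Adamts5* and *Adamts9*, but also to the median of 0.71 of the 27 measured members. *Adamts15* was at 1.89. *Acan*, encoding aggrecan, was not measured, at 0.847 against 0.265 FPKM, and neither was *Comp*, at 0.796 against 0.0294 FPKM.

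**Figure D4:**
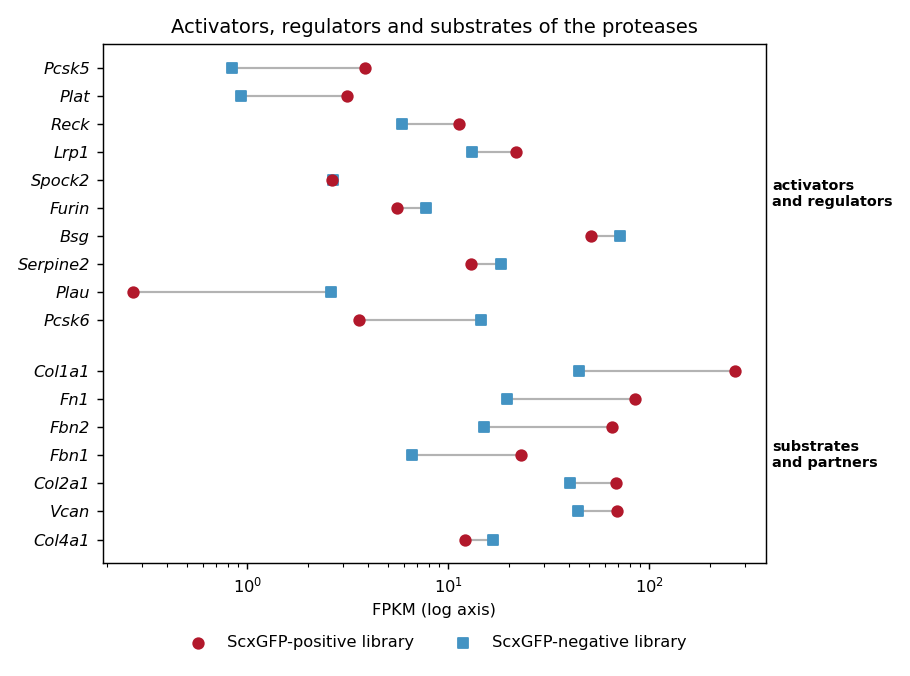
FPKM (log axis) of the 17 measured genes for activators and regulators (10) and for substrates and partners (7) in the ScxGFP-positive library (circles) and the ScxGFP-negative library (squares). *Pcsk5* and *Pcsk6*, and *Plat* and *Plau*, lie on opposite sides.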

How the data were processed

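RNA of sorted forelimb cells was sequenced as 1 library for each of 2 cell populations, named from the labels' cell population. Per the labels' protocols, an RNeasy micro kit gave the RNA and NuGEN Ovation RNA-Seq v2 the cDNA. Per the submitters' processing notes, Bowtie 0.12.7, TopHat 1.4.1 and mouse build mm9 were used, and the sources used here give no version for the program that estimated abundance. The deposited tables hold, per the file headers, a length, a coverage signal, an FPKM and a status for each RefSeq transcript. The authors' deposited FPKM is not a count, and no read counts were derived from it. Aligned bases are the deposited coverage times transcript length.

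FPKM was summed per symbol with Python 3.11.15 and pandas 2.3.3; symbols with a failed row were missing (no member had one). File positions count from 0, since length equalled end minus start in 3284 rows, and 1 was added to each start. The measure was log2 of the FPKM ratio with a pseudocount of 1, among genes of at least 1 FPKM in either library, described at 2-fold. With 1 library per group there was no test. Coverage divided by FPKM was 2.28 in the ScxGFP-positive and 2.39 in the ScxGFP-negative library, and sequence on listed transcripts 0.687 and 0.875 gigabases. The members, roles, pathway lists and markers were chosen with earlier results of these data known. All measured members are named with both values, and pathway genes past 2-fold with theirs. There were 8 alternatives listed in advance and 1 added after seeing the data (statsmodels 0.14.6, LOWESS fraction 0.3, trend on transcript length). Promoter windows came from RefSeq (GRCm38.p6), a build other than that of the files, and were matched by symbol.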

Additional observations from a re-analysis of the deposited data

How the results depend on the processing

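No paired analysis was possible because each group has 1 library. Of 9 other settings, 8 were listed in advance, and the length trend was added after seeing the data. The count of genes at least 2-fold higher in the ScxGFP-positive library (6 as reported) was 10 with a pseudocount of 0.1, 1 with a pseudocount of 5, 12 with the median ratio set to 1, 10 with equal upper quartiles and 20 with TPM. It was 6 without the filter, 4 with a minimum FPKM of 5, 7 with the highest transcript only and 5 with the length trend removed. The share of all genes higher by as much moved as well, from 4.03% as reported. In the order of settings above it was 5.89%, 1.84%, 5.92%, 5.56%, 9.37%, 2.21%, 5.2%, 4.32% and 3.92%. The count at least 2-fold lower (1) was 2 with a pseudocount of 0.1 and 0 when that was raised to 5. It was also 0 with a minimum FPKM of 5, which left 14 genes without *Mmp15*. All-gene shares on this side were 9.98% as reported, then 14.7%, 3.26% and 10.6%. The median log2 ratio of 0.71 was 0.93 and 0.37 with pseudocounts of 0.1 and 5, 0.13 without the filter, 0.74 with a minimum FPKM of 5, 0.94 with the median ratio set to 1, 0.91 with equal upper quartiles, 1.31 with TPM and 0.62 with the length trend removed. It stayed above the median of all genes under each of these, by 0.17 (no filter) to 1.26. No gene past 2-fold changed sign; of the rest, *Adamts10* was at −0.0069 with the highest transcript only, *Adamts17* at −0.093 with the length trend removed, and *Timp3* changed sign as given above. Without the filter the MMP median was −0.0055, since 16 of 23 genes then lie under 1 FPKM; the other family medians kept their sign. *Timp1* passed 2-fold with the highest transcript only because its FPKM is split between near-identical transcripts. Depth limits the values under 1 FPKM most, such as *Timp4*, which rests on about 172 and 168 aligned bases.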

Other observations

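For some genes the deposited FPKM moved almost wholly between near-identical transcripts from library to library. The *Timp1* transcripts NM_001044384 and NM_011593, of 890 and 887 bases, stood at 1.39 and 0.00023 FPKM in the ScxGFP-positive library and at 0.0059 and 0.489 FPKM in the ScxGFP-negative library. The *Mmp19* transcripts NM_021412 and NM_001164197 stood at 0.270 and 0.0013 FPKM in the ScxGFP-positive library and at 4.1e-05 and 0.306 FPKM in the ScxGFP-negative library. Summed over transcripts, *Mmp19* was at 0.272 against 0.306 FPKM, so the switch is not seen at the level of the gene.

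*Timp2* holds the gene *BC100451* within its span (mm9 chr11:118193674-118203848), which stood at 1.85 FPKM in the ScxGFP-positive library and 0.687 FPKM in the ScxGFP-negative library, far below *Timp2* itself in both.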
